A study of Mus musculus with 8 samples.

Results

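Genes of the antioxidant and FoxO pathways were examined in single hematopoietic stem cells (HSCs) from mice with floxed Med23, which encodes a part of Mediator, the complex that links transcription factors to RNA polymerase II. The genes were looked up by symbol in the table of expression values: the transcription factors Foxo1 and Foxo3, the thioredoxin inhibitor Txnip, and the enzymes Cat, Sod1, Sod2, Gpx1, Gpx4, Prdx1 and Prdx2. Of these 10 genes, 9 were among the 10720 in the table, and Foxo3 was not analysed here. Both groups were adult C57BL/6 mice, which the labels call wild type (WT) and Med23-/- (KO). Per the study, WT mice were Mx1-cre- Med23 L/L littermates and KO mice Mx1-cre+ Med23 L/L, so both carry the floxed allele. Cre was switched on by poly(I:C), an interferon inducer that itself stresses HSCs. The Mx1 promoter responds to interferon in many tissues, so deletion is not limited to HSCs. Cells were sorted from bone marrow as the LSK fraction (lineage-negative, with Sca1 and c-Kit) that was CD150+CD34-CD48-, then picked by hand. The labels list 4 libraries for each genotype, but the 586 columns name only the genotype and a cell number. Each genotype was therefore 1 pool, there was no replicate check, and no p-value was computed.

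Reactive oxygen species push HSCs out of quiescence, and these genes form the main defence against them. Superoxide dismutases turn superoxide into hydrogen peroxide, which catalase, glutathione peroxidases and peroxiredoxins then remove. FoxO factors are held out of the nucleus when growth factor signals activate AKT, and when nuclear they drive genes of antioxidant defence and cell cycle arrest. Mice without FoxO factors in blood lose HSCs as oxygen species build up.

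Of the 586 cells, 493 had at least 2000 detected genes and 20000 unique molecular identifiers (UMIs, tags that let copies of 1 RNA molecule be counted once), 259 labelled WT and 234 labelled KO. They held 21475782 and 16180546 UMIs, with medians of 59649 and 50281 per cell. Med23 itself, the check of the labels, gave counts of 122 UMIs in WT and 117 in KO, or 5.68 and 7.23 counts per 1000000 UMIs of the pool (CPM). The log2 ratio of KO over WT was 0.35 (95% counting interval -0.03 to 0.73), and 28 of the KO UMIs lay in 1 cell. It was 0.12 without the top cell of each label and 0.10 without the cells with oocyte transcripts described next. Med23 was detected in 18.1% (13.6 to 23.4) of WT cells and 11.5% (7.74 to 16.3) of KO cells, or 9.65% (6.34 to 13.9) and 6.84% (3.96 to 10.9) with each cell thinned to 20000 UMIs, with overlapping intervals. With at least 2 UMIs after thinning, the shares were 2.70% and 3.42%. The pooled interval holds 0 and the share intervals overlap, so this check settles nothing about the labels. UMIs are counted at the poly(A) tail and need not show a deletion elsewhere in the gene. The paper reports that Med23 was deleted efficiently after poly(I:C). Genotypes are given below as labels. All 10 HSC markers on the list were detected, with summed levels of 1159 and 1063 CPM, but they did not move together. Slamf1, which encodes the sorted CD150, had a log2 ratio of -2.26, Hlf -0.68, Ly6a -0.53 and Kit -0.45, while Mecom had 1.14. Cd34, whose protein the sort excluded, had 178 CPM in WT and 304 in KO. In 67 cells labelled WT (25.9%) and 2 labelled KO (0.855%), genes of the oocyte took over 1000 CPM. Values without these cells, called cells with oocyte transcripts, are given below. The cells that remain are not free of such RNA. The oocyte gene Zp3 still had a UMI in 58.3% of them in WT and 13.8% in KO. Of markers of other cells, 3 of 9 neutrophil genes (106 and 279 CPM, mostly Prtn3), 2 of 7 macrophage genes (32.0 and 59.1 CPM), 4 of 13 erythroid genes (62.2 and 81.4 CPM, where Car1 had 3 and 989 UMIs and Klf1, Epor and Gata1 were lower in KO), 7 of 7 megakaryocyte genes (990 and 1083 CPM) and 6 of 8 genes of stroma and endothelium (81.8 and 102 CPM) were in the table. The sums for megakaryocytes and for stroma and endothelium hide opposite moves. Col1a1 (345 and 4 UMIs), Col1a2 (128 and 5), Lepr (241 and 48) and Kdr (152 and 34) were lower in KO. Pecam1 (418 and 858) and Emcn (472 and 707) were higher. Of the megakaryocyte genes, Vwf (206 and 7), Gp1bb and Pf4 were lower, Itga2b, Gp9 and Ppbp were higher, and Gp5 was near even. Elane, Mpo, the globins and the 9 mitochondrial transcripts were not analysed here. Summed transcripts of the G2M phase of the cell cycle were 1631 CPM in WT and 1033 CPM in KO, with the cells with oocyte transcripts included. Most of the 24 genes were lower in KO, such as Ccnb1 with a log2 ratio of -2.23. Top2a (0.43) and Tpx2 (0.41) were among those higher, and Mki67 (-0.06) was near even. Neither depth, oocyte transcripts, these markers nor poly(I:C) was tested for its part in the differences below, beyond the values given.

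Members Txnip, Gpx1 and Prdx1 are shown with the DNA before their start site, because the results turn on them: in the pool labelled KO the levels of Txnip and Gpx1 were higher and that of Prdx1 was lower. Sequences are from RefSeq (GRCm38.p6), 250 bases before the start on the plus strand: chr3:96557707-96557956 for Txnip, chr9:108338830-108339079 for Gpx1 and chr4:116685349-116685598 for Prdx1. Capitals mark matches on either strand to GTAAACA (the FoxO core), TGACNNNGC (the core of the antioxidant response element, bound by Nrf2) and CCAAT.
Txnip: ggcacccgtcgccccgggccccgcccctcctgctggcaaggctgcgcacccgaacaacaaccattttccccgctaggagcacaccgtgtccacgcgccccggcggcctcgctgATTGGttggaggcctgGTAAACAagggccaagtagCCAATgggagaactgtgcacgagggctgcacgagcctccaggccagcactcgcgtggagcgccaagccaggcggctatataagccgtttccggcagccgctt
Gpx1: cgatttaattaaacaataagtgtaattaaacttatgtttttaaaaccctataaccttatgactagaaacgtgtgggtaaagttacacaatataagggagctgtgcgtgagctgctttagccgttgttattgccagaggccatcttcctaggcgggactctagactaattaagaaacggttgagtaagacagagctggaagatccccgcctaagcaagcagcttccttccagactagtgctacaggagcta
Prdx1: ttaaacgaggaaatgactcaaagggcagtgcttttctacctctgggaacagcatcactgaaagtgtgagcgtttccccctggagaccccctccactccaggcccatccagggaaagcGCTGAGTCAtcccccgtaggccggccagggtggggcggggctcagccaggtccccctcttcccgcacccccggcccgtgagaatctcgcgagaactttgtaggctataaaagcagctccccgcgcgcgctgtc
Txnip held 1 FoxO core, which starts 121 bases before the start site and lies between CCAAT boxes at 137 and 102 bases, with no overlap. Among all 10 genes, whose 13 promoter entries ran from 250 bases before to 50 after the start, this was the only FoxO core, and 3.65% of all 32851 promoter entries hold one. Prdx1 held 1 antioxidant response element core, 133 bases before its start, and Sod1 held another at 56 bases. Such a core was in 12.39% of all entries and CCAAT in 37.41%. No match was found in the entries of Gpx1, Prdx2 and Foxo3. A match is a run of letters and not a shown binding site.

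Pooled levels of the 9 genes spanned a wide range. UMIs count molecules at the poly(A) tail and are not divided by transcript length. In the pool labelled WT, Gpx1 was highest at 1786 CPM, then Gpx4 at 799, Prdx1 at 751, Prdx2 at 531, Sod1 at 523, Txnip at 490, Sod2 at 128, Cat at 80.5 and Foxo1 at 15.3 CPM. Each neighbour in this order differed from the next beyond its counting interval except Prdx2 and Sod1, whose ratio was 1.01 (0.988 to 1.04). In the pool labelled KO the order was Gpx1 at 2748 CPM, Gpx4 at 951, Txnip at 697, Prdx1 at 525, Sod1 at 451, Prdx2 at 422, Sod2 at 132, Cat at 77.1 and Foxo1 at 10.4 CPM, with no interval holding 1. In these pools Txnip thus stood below Prdx1, Prdx2 and Sod1 in the first order and above them in the second. Each cell was also thinned to 20000 UMIs. Mean UMIs per cell in WT were then 13.1 for Prdx1, 11.6 for Sod1, 11.0 for Txnip and 10.3 for Prdx2. Medians in WT were 9 for Txnip, Sod1 and Prdx2 alike, so the place of Txnip among these genes in WT was not steady. In KO the thinned mean of Txnip, 15.9, stayed above Prdx1 (9.42), Sod1 (9.30) and Prdx2 (8.76). In the unthinned pools the 9 genes together took 0.510% of UMIs in WT and 0.601% in KO, or 5104 and 6014 CPM. Gpx1 alone made up 45.7% of the KO value. All intervals here cover counting error only.

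**Figure D1:**
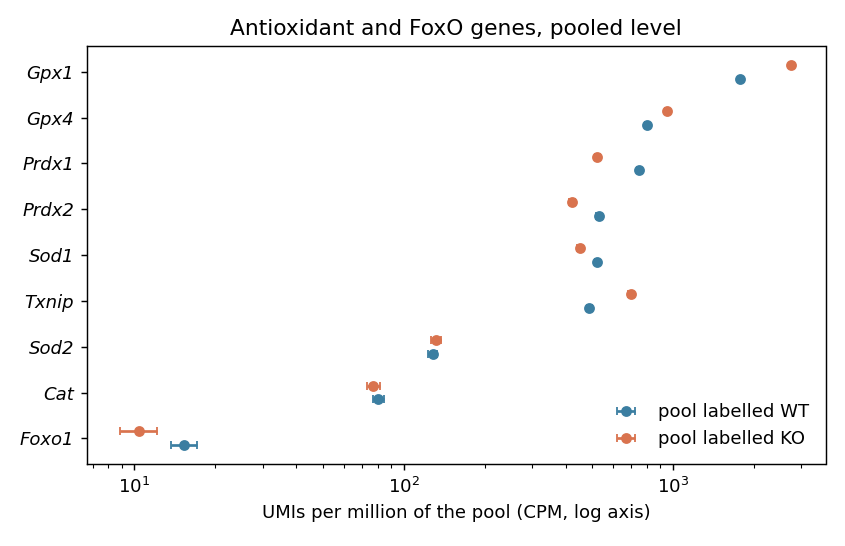
Pooled level of each gene (horizontal, CPM on a log axis) in kept cells labelled WT (blue) and KO (orange), with exact 95% Poisson intervals. Gpx1 was highest in both pools, at 1786 and 2748 CPM, and Foxo1 lowest, at 15.3 and 10.4 CPM.

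Between the pools, Txnip and both glutathione peroxidases were higher in KO, both peroxiredoxins and Sod1 were lower, and Sod2, Cat and Foxo1 gave no steady direction. At a ratio of 1.5-fold, 1 of the 9 genes was higher in the pool labelled KO and 0 were lower, against 17.2% and 15.5% of all 10720 genes. Counting intervals lay above a ratio of 1 for 3 genes (Gpx1, Txnip and Gpx4) and below it for 4 (Foxo1, Sod1, Prdx1 and Prdx2), against 39.2% and 35.7% of all genes. At 2-fold, 0 and 0 of the 9 genes passed, against 6.98% and 7.94% of all genes. Without cells with oocyte transcripts 1 gene (Gpx1) was higher and 1 (Foxo1) lower past 1.5-fold, against 18.6% and 14.2%. With the authors' normalized values 0 were higher and 1 (Prdx1) lower, against 10.3% and 19.0%, and with TMM scaling 1 and 1 (Gpx1 and Foxo1), against 16.4% and 16.3%. Each of these counts past a fold is 0 or 1 of 9, a smaller share than that of all genes. The median log2 ratio of the 9 genes was -0.06, and that of all genes was 0.02, with 5th and 95th percentiles of -1.45 and 1.18.

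Glutathione peroxidases use glutathione to remove peroxides, and both members were higher in KO. Gpx1, the main cytosolic form, was detected in every cell, at 225 to 4795 CPM (median 1762) in cells labelled WT and 419 to 7458 CPM (median 2567) in cells labelled KO. The 2 ranges overlapped, but the lower quartile in KO, 1872 CPM, lay above the WT median. The pooled log2 ratio was 0.62 (0.60 to 0.64), or 1.54-fold, and 0.61 without cells with oocyte transcripts. It was 0.55, 0.48 and 0.70 in cells of 20000 to 40000, 40000 to 80000 and over 80000 UMIs. Gpx4, which removes lipid peroxides and blocks ferroptosis, had medians of 710 and 786 CPM per cell, with highest cells at 2543 CPM in WT and 3638 in KO. Its pooled log2 ratio was 0.25 (0.22 to 0.28), 0.18 without cells with oocyte transcripts and 0.04 with the authors' normalized values, for which the median of all genes was -0.14.

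Prdx1 and Prdx2, which reduce peroxides with electrons from thioredoxin, were lower in KO. Prdx1 ran from 0 to 3060 CPM per cell (median 578) in WT and from 0 to 2205 CPM (median 416) in KO. The log2 ratio was -0.51 (-0.55 to -0.48), and -0.43 without cells with oocyte transcripts. It was negative in all 3 depth classes, at -0.21, -0.34 and -0.54. Prdx2, abundant in red cells, had medians of 447 and 415 CPM per cell, with ranges of 0 to 2152 CPM in WT and 0 to 1834 in KO. Its log2 ratio was -0.33 (-0.37 to -0.29), but by depth it was -0.22, 0.02 and -0.53, so the difference lay in the shallowest and the deepest cells.

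Superoxide dismutases and catalase differed little. Sod1, the cytosolic dismutase, ran from 0 to 2920 CPM per cell (median 429) in WT and from 0 to 3690 CPM (median 318) in KO, with 1 and 12 cells without a UMI. The log2 ratio was -0.21 (-0.26 to -0.17) and -0.12 without cells with oocyte transcripts, and it ran down to -0.47 with the authors' normalized values. By depth the Sod1 ratio was -0.43, -0.07 (-0.16 to 0.02) and -0.23, so the interval of the middle class held 0. For Sod2, the mitochondrial dismutase, the median was 86.1 CPM per cell in WT (0 to 891) and 51.0 in KO (0 to 987), yet the pooled log2 ratio was 0.04 (-0.04 to 0.13). Its sign depended on depth: -0.23 and -0.50 in the 2 shallower classes and 0.33 in cells over 80000 UMIs, and -0.20 with each cell thinned at random to 20000 UMIs. Cat, the catalase of peroxisomes, had medians of 39.7 CPM per cell in WT (0 to 560) and 46.2 in KO (0 to 437), and a log2 ratio of -0.06 (-0.17 to 0.04). Without cells with oocyte transcripts the ratio of Cat was -0.24 (-0.35 to -0.12). Among WT cells it was lower in the 67 that hold them than in the others (51.4 against 91.0 CPM). For both Sod2 and Cat, no direction can be read from these pools.

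Txnip binds and inhibits thioredoxin and lowers glucose uptake. It ran from 0 to 2106 CPM per cell (median 444) in WT and from 0 to 2738 CPM (median 645) in KO, with the quartiles of the 2 labels overlapping. The log2 ratio was 0.51 (0.47 to 0.55), or 1.42-fold, and 0.58 (0.54 to 0.62) without cells with oocyte transcripts. By depth it was 0.47, 0.29 and 0.54. Over 10 alternative ways of counting it stayed between 0.46 and 0.58.

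Foxo1, the only FoxO factor of the 2 with a value, was too sparse for a direction. It had no UMI in 224 of 259 cells labelled WT (86.5%) and in 200 of 234 labelled KO (85.5%). The pools held 328 and 168 UMIs, a log2 ratio of -0.56 (-0.83 to -0.28). Its highest cell reached 370 CPM in WT and 430 in KO. A single cell labelled WT held 144 of those UMIs, and the top KO cell held 29. Without these 2 cells the log2 ratio was -0.01. By depth it was -1.23, 1.58 and -1.31, so it turned in the middle class.

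**Figure D2:**
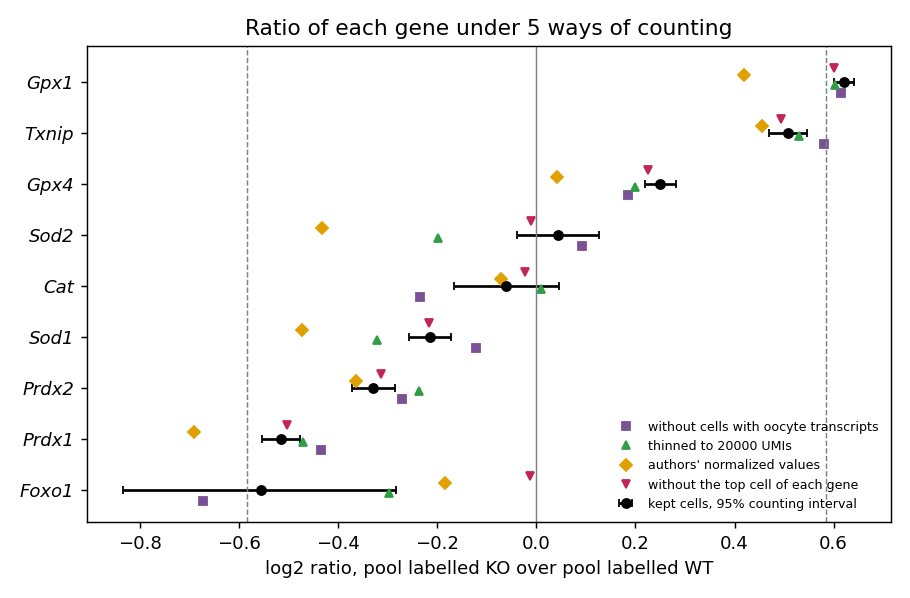
Log2 ratio of KO over WT (horizontal) for each gene, in kept cells with its 95% counting interval (black) and under 4 other ways of counting (coloured marks), with dashed lines at 1.5-fold. Gpx1 and Txnip stayed above 0 and Prdx1 below 0 in all 5, whereas Sod2 lay on both sides and Foxo1 moved from -0.56 to -0.01 without its top cells.

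Because depth differed between the pools, cells were also compared at an equal 20000 UMIs. The median cell then held 34 Gpx1 UMIs in WT and 52 in KO, and 9 and 13 Txnip UMIs. For Prdx1 the medians were 11 and 8, and for Sod1 9 and 6. At this depth Gpx1 was detected in 100% of cells of both labels. Prdx1 was detected in 98.1% (95.6 to 99.4) of WT cells and 92.7% (88.6 to 95.7) of KO cells, and Sod1 in 93.1% (89.2 to 95.8) and 87.6% (82.7 to 91.5). For Sod2 the shares were 66.4% and 59.4%, and for Cat 58.3% and 59.4%, with overlapping exact binomial intervals. Shares for Txnip, Gpx4 and Prdx2 lay between 93.2% and 98.7% in both labels. Foxo1 was detected in 9.27% of WT cells and 10.3% of KO cells. As a gauge of RNA from other cells, the oocyte gene Zp3 was detected at the same depth in 45.2% of WT cells and 6.41% of KO cells. Without cells with oocyte transcripts Zp3 was in 33.3% of WT cells. The share for Foxo1 in WT lies below both values, and that of Med23 in WT (9.65%) lies below them too. Zp3 had 394 CPM in the WT pool against 15.3 for Foxo1, so its share sets no floor for so sparse a gene. In WT the gauge therefore cannot decide whether these UMIs are expression or stray RNA. In KO the share for Foxo1 (6.68 to 14.9) lies above that of Zp3 (3.63 to 10.4) with overlapping intervals, so the gauge decides nothing there either.

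Spread between cells also differed by gene. The Fano factor, the variance over the mean, was 9.87 in WT and 11.9 in KO for Sod1, 7.51 and 8.09 for Gpx4, 6.60 and 8.10 for Txnip, 7.08 and 6.47 for Prdx1, and 5.69 and 4.58 for Prdx2. For Gpx1 it was 7.11 and 11.0, at means of 35.9 and 54.5 UMIs per cell. With cells thinned to 10000 UMIs the Gpx1 values were 4.08 and 5.22. The factor depends on the mean count and on depth, so its differences between genes or labels are not read as spread alone. The 10% of cells with the most UMIs held 18.6% and 19.1% of Gpx1 UMIs. This was the lowest share among the 9 genes, and Gpx1 also had the highest mean. For Sod2 those cells held 37.7% and 44.4%, and for Foxo1 100% and 98.0%.

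**Figure D3:**
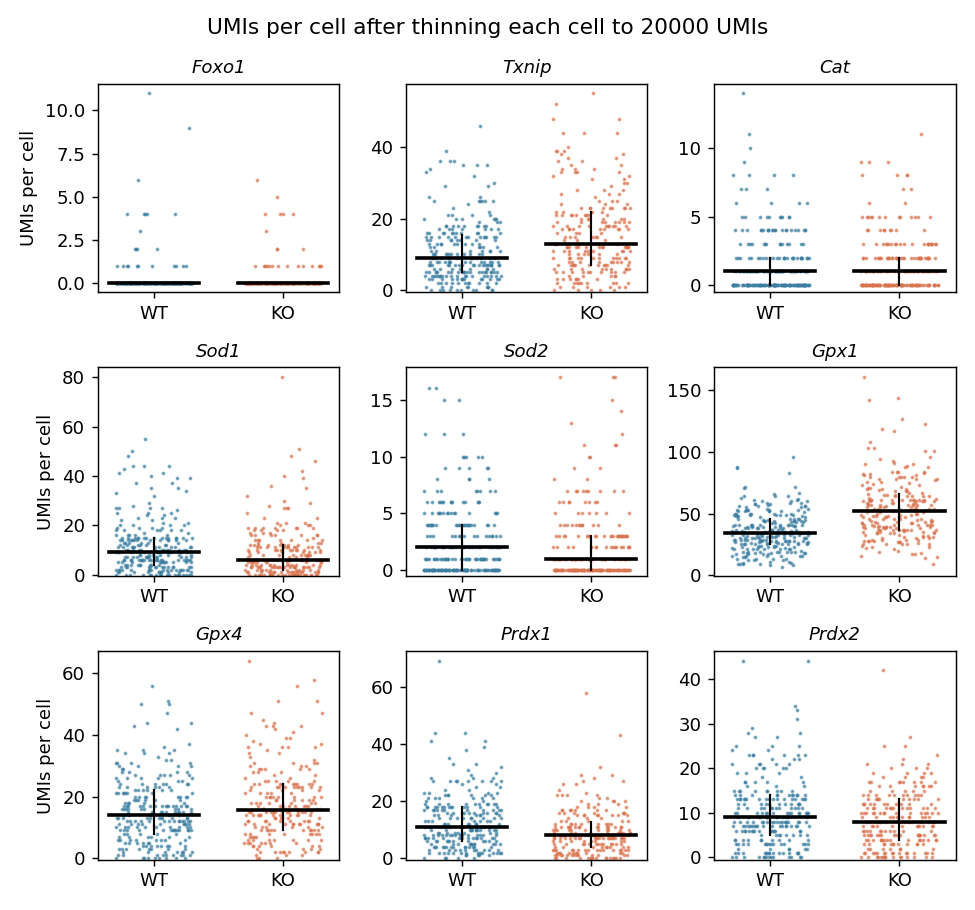
UMIs per cell (vertical) of each gene in cells labelled WT (blue) and KO (orange), after each cell was thinned to 20000 UMIs; bars mark the median and lines the quartiles. The Gpx1 median was 34 in WT and 52 in KO, while for Foxo1 both medians were 0.

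A ratio of genes within the same cell needs no scaling by depth, and this comparison was chosen after seeing the data. Gpx1 was already known to be higher in KO and Prdx1 and Prdx2 lower, so the direction of their ratio was set beforehand. The same holds for Txnip against Txn1, whose log2 ratio was -0.31. The values below give the size within cells and are no separate support. Gpx1 and the cytosolic peroxiredoxins remove the same substrate, hydrogen peroxide. Of the UMIs of Gpx1, Prdx1 and Prdx2, Gpx1 made up 58.2% (57.9 to 58.6) in WT and 74.4% (74.0 to 74.7) in KO. Per cell the median was 60.9% (quartiles 51.0 and 70.9) in WT and 75.6% (66.7 and 81.0) in KO. Without cells with oocyte transcripts the medians were 61.5% and 75.6%. Txnip was set against Txn1, which encodes the thioredoxin it inhibits. There were 0.701 Txnip UMIs for each Txn1 UMI in WT and 1.24 in KO, and the median share of Txnip per cell was 44.5% (22.7 and 65.7) and 61.4% (37.9 and 76.7). Quartiles overlapped in both comparisons. Within families there were 2.23 Gpx1 UMIs for each Gpx4 UMI in WT and 2.89 in KO, and 1.41 and 1.24 Prdx1 UMIs for each Prdx2 UMI. For Sod1 over Sod2 the pooled ratio was 4.08 in WT and 3.41 in KO, while the median share of Sod1 per cell went the other way, from 84.0% to 90.1%.

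**Figure D4:**
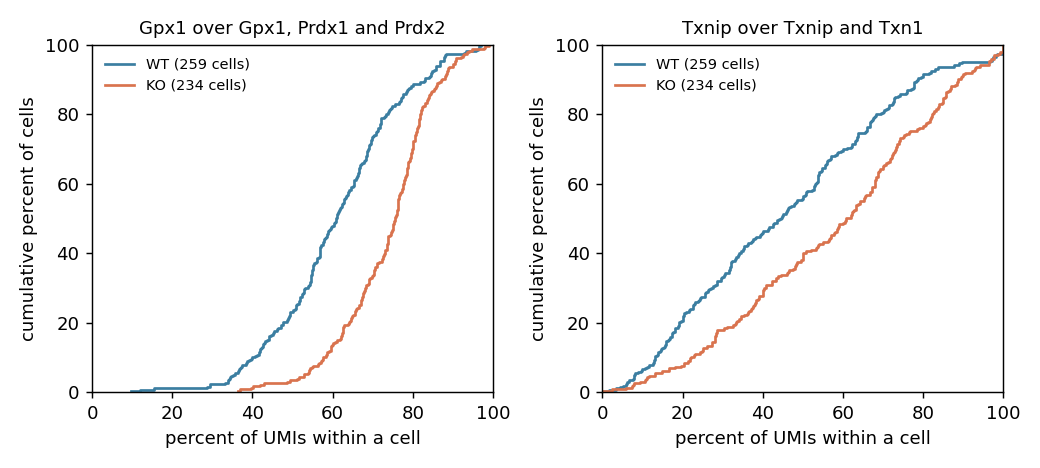
Cumulative percent of cells (vertical) against the share of UMIs within a cell (horizontal) that Gpx1 made up of Gpx1, Prdx1 and Prdx2 (left) and Txnip of Txnip and Txn1 (right). The KO curve lies to the right of the WT curve in both panels over most of the range, with medians of 75.6% against 60.9% and 61.4% against 44.5%.

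The cell cycle was examined next, since the sum of its G2M genes also differed between the pools. Cells with no more than 1000 CPM of oocyte genes were divided at 406 CPM of summed G2M genes. This is the upper quartile over both labels, a range and not a cell type. In all, 59 of 192 WT cells (30.7%) and 47 of 232 KO cells (20.3%) lay above it, and 8 and 13 cells lay within 10% of the division. Prdx1 was higher in cells above the division in both labels, by a log2 ratio of 0.43 in WT and 0.56 in KO, as was Sod1 (0.30 and 0.45). Txnip was lower above the division (-0.52 and -0.41), as was Prdx2 (-0.23 and -0.33). Gpx1 was nearly even (-0.06 and 0.04). The difference between labels was then read on each side. Below the division, KO over WT was 0.58 for Gpx1, 0.49 for Txnip, -0.40 for Prdx1 and -0.29 for Prdx2. Above it, the values were 0.68, 0.59, -0.27 and -0.39. Gpx4 stood at 0.29 below and 0.07 (0.01 to 0.13) above. Sod1 stood at -0.11 below and 0.04 above (-0.04 to 0.12), and Sod2 (0.16 and -0.72) and Cat (-0.58 and 0.58) took opposite signs on the 2 sides. Prdx1 and Txnip thus had the same sign on both sides of the division. The division uses G2M genes only, and the part of the cell cycle in these differences was not tested.

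Across cells of a label the 9 genes showed little relation to each other. Over the 36 pairs, Spearman's rho at 20000 UMIs ran from -0.15 to 0.16 in 259 WT cells and from -0.20 to 0.16 in 234 KO cells, where cells share library and counting noise. The genes most like Txnip across cells were Rsrp1 (0.28 in WT and 0.30 in KO), Eef1a1 (0.28 and 0.39) and Clk1 (0.26 and 0.35), out of 7554 searched. For Gpx1 it was Coro1a (0.25 and 0.22), for Gpx4 Tcf19 (0.25 and 0.24), for Prdx1 Clspn (0.20 and 0.24) and for Sod1 Ndc80 (0.20 and 0.20). In counts this sparse such values are weak and no finding.

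The wider pathways were read from lists written from general knowledge. The log2 ratio of KO over WT is again in CPM of the pools, and genes named are those furthest past 1.5-fold with at least 100 UMIs. Among the FoxO family and its regulators, 28 of 31 genes were in the table, 5 were higher and 0 lower past 1.5-fold, against 17.2% and 15.5% of all genes, which puts the higher count near the background. The median was 0.26, and 0.05 with the authors' normalized values. Tsc2, a brake on mTOR signalling, went from 91 to 310 UMIs (2.18, 1.84 to 2.53). Its ratio was 1.22 with thinned cells, and 22.3% of its KO UMIs lay in 1 cell. Sirt1, a deacetylase that acts on FoxO proteins, went from 93 to 147 (1.07, 0.68 to 1.46), and Pik3ca, a catalytic subunit of PI3 kinase upstream of AKT, from 730 to 1055 (0.94, 0.80 to 1.08). Pik3ca was at 0.60 with thinned cells.

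Of 50 known FoxO target genes, 41 were in the table, 11 were higher and 3 lower, against 17.2% and 15.5% of all genes, with a median of 0.25. Without cells with oocyte transcripts 9 were higher and 4 lower, against 18.6% and 14.2%. The list holds the members Txnip, Cat and Sod2. It does not separate targets that FoxO factors raise from any they lower, so its counts and median are no measure of FoxO activity. Higher in KO were Klf2, a quiescence factor, with 41 and 110 UMIs (1.83, but 82.9% of WT UMIs lay in 1 cell), Insr, the insulin receptor, with 109 and 237 (1.53), and Ulk1, a kinase that starts autophagy, with 200 and 385 (1.35). Insr was at 1.13 without cells with oocyte transcripts, and Ulk1 at 0.65 with thinned cells. Among the lower genes were S1pr1, a receptor in lymphocyte egress, with 311 and 95 UMIs (-1.30), and Trib1, with 86 and 35 (-0.89, and -0.43 on the authors' normalized scale).

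The glutathione list holds Gpx1, Gpx4 and the genes that make, use and recycle glutathione. Of its 35 genes, 33 were in the table, 1 (Gpx1) was higher and 13 were lower, against 17.2% and 15.5% of all genes, with a median of -0.21. The lower ones included the peroxidases Gpx3 (-1.13), Gpx7 (-0.91) and Gpx8, of which Gpx3 and Gpx7 are named outside the rule for lists. Without cells with oocyte transcripts Gpx3 was at -0.05 and Gpx7 at -0.47, so neither passed 1.5-fold. Without cells with oocyte transcripts 8 were lower, against 14.2% of all genes. Ggct, which breaks down gamma-glutamyl peptides, had 2113 and 349 UMIs, a log2 ratio of -2.19 that became -0.17 without those cells. Me1, an enzyme that supplies NADPH, had 282 UMIs in WT and 1 in KO, a log2 ratio between -13.04 and -5.24, and without those cells it was -3.62 with the KO count raised to 3. The UMIs of Gpx8 numbered 224 in WT and 3 in KO, which is -5.81 on the log2 scale (-8.10 to -4.25) and -5.25 without those cells. Of the Me1 UMIs, 33.0% lay in 1 WT cell.

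In the thioredoxin and peroxiredoxin list, 21 of 22 genes were in the table, 0 were higher and 1, Nxn, was lower (157 and 68 UMIs, -0.80, and -0.25 without cells with oocyte transcripts). The median was -0.01. In the superoxide and hydrogen peroxide list, 4 of 5 genes were in the table and 0 were past 1.5-fold. Of 24 genes of the Nrf2 pathway, 22 were in the table, 3 were higher and 4 lower, near the 17.2% and 15.5% of all genes, with a median of 0.10, or -0.02 with thinned cells and -0.13 on the authors' scale of normalized values. Hmox1, which degrades heme, had 77 and 142 UMIs (1.29, and 0.46 on the authors' scale), Abcc1, a glutathione conjugate exporter, 822 and 1166 (0.91), and Nfe2l1, a relative of Nrf2, 1045 and 1414 (0.84, and 0.52 on that scale). Lower were Maff, with 200 and 64 UMIs (-1.24), Osgin1, with 789 and 299 (-0.99, and -0.54 on the authors' scale), and the hydrolase Ephx1, with 138 and 48 (-1.12, and -0.03 without cells with oocyte transcripts).

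Glutathione peroxidases 1 and 4 contain selenium. Of 18 genes of selenoprotein synthesis, 16 were in the table, 2 were higher and 1 lower, below the 17.2% and 15.5% of all genes, with a median of -0.07. Scly, which frees selenium from selenocysteine, had 60 and 118 UMIs (1.38), Secisbp2l 474 and 705 (0.98, and 0.41 with thinned cells), and Selenom 1227 and 602 (-0.62, and -0.33 with thinned cells). NADPH oxidases make superoxide. Of their 12 genes, 7 were in the table, 2 were higher and 1 lower, against 17.2% and 15.5% of all genes, with a median of 0.36. Without cells with oocyte transcripts 1 was higher and 0 lower, against 18.6% and 14.2%. The subunits Ncf1 and Ncf4 had 168 and 359 UMIs (interval of the log2 ratio 1.24 to 1.78) and 510 and 609 (0.49 to 0.84), and Ncf4 was at 0.37 without cells with oocyte transcripts. Both are abundant in neutrophils, and of the neutrophil markers Prtn3 was higher in KO (82.7 and 268 CPM) while S100a8 (17.6 and 8.22 CPM) and S100a9 (6.01 and 3.21 CPM) were lower. Their part in these ratios was not tested. Noxo1 had 271 and 50 UMIs (-2.03), and 0.12 without cells with oocyte transcripts.

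**Figure D5:**
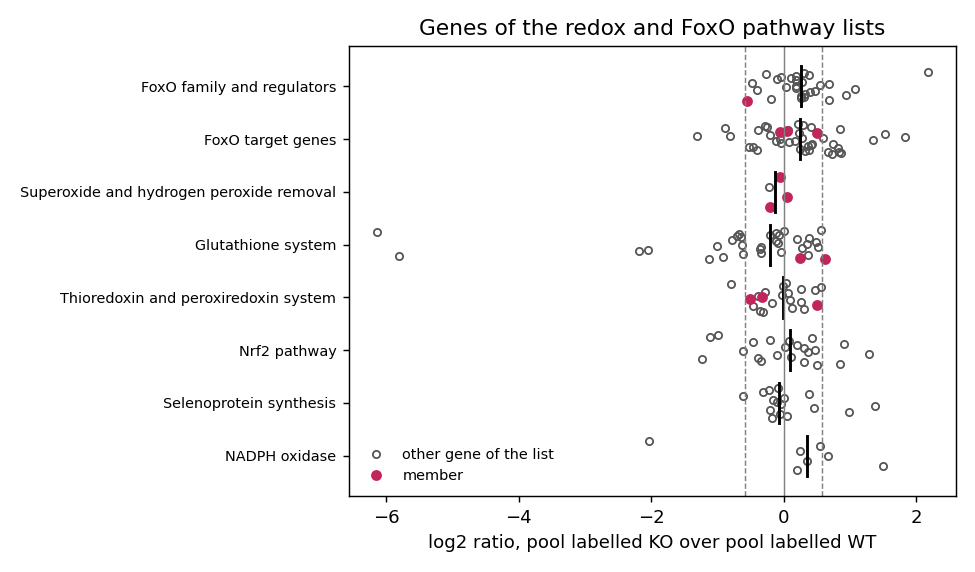
Log2 ratio of KO over WT (horizontal) for each gene of 8 pathway lists, with the 9 members filled, the list median as a black bar and dashed lines at 1.5-fold. The glutathione list holds 13 genes below the lower line, with Me1 (its KO count raised to 3) at -6.15 and Gpx8 at -5.81.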

How the data were processed

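Messenger RNA of single HSCs was copied from the poly(A) tail with primers that hold a cell barcode and a UMI. The authors aligned reads to an mm9 transcriptome, counted UMIs, left out cells under 30% mapping, 2000 genes or 20000 transcripts and genes with a mean count under 0.2, and normalized. Which aligner and which normalization were used is not given in the sources used here. The table they deposited covers 10720 genes and 586 cells, in log2 of a normalized count with 1 added. With the log2 undone, each cell's values were whole multiples of its smallest value (100% within 0.01 of a count), which gave the UMI counts. Totals of UMIs and CPM here cover only these 10720 genes. All 586 cells had passed the study's minimum of genes and transcripts. The same minimum was applied to the totals over the 10720 genes, which kept 493 cells. UMIs were then summed per label, scaled to CPM (1000000 UMIs), and KO was divided by WT. Pooled counts under 3 were raised to 3. CPM have exact Poisson intervals, ratios and shares exact Clopper-Pearson intervals, all at 95%. Whether the cells of a label came from separate animals is not known from the columns, and no doublet caller was run on hand-picked cells. Scripts were tested on simulated data and used python 3.11.15, numpy 2.4.6, pandas 2.3.3 and scipy 1.17.1. The tests planned for counts per library were not run, since each label is 1 pool.

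The members, lists and rules were chosen with earlier results of these data known. The genes named are the members, Med23, in each list up to 3 genes each way with the largest ratio past 1.5-fold and at least 100 UMIs, and, for each member, up to 3 genes at a mean of 1 UMI or more with the highest rank correlation in both labels, of which the leading ones are printed. A gene that the rule for lists names is not reported here. Alternatives were every cell, a minimum of 3000 genes and 30000 UMIs, no cells with oocyte transcripts, thinning to 20000 or 10000 UMIs, the authors' normalized values, no top cell, median-of-ratios, upper-quartile and TMM scaling, and a fold of 2. Added after seeing the data were depth classes, within-cell ratios, the G2M division, and thinning without cells with oocyte transcripts.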

Additional observations from a re-analysis of the deposited data

How the results depend on the processing

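No paired analysis was possible because cells of a label could not be assigned to libraries, and leaving out replicates and a replicate block were not run. Of 90 log2 ratios of members under other settings, 58 stayed inside the counting interval of the value reported, 32 moved outside it, and no called ratio changed sign. Txnip, Gpx1, Gpx4, Sod1, Prdx1 and Prdx2 kept their direction in all 10 settings, as did Foxo1, though it came down to -0.01 without its top cells. Cat kept it in 9 of 10 and Sod2 in 6 of 10. With the authors' normalized values the median of all genes was -0.14, against 0.02 in the pools, 0 members were higher and 1, Prdx1, was lower past 1.5-fold, and the median of the members was -0.18. At a fold of 2, 0 members were higher. Foxo1 passed 1.5-fold downward, for a count of 1, without cells with oocyte transcripts and with TMM scaling. The median of the members was -0.20 with cells thinned to 20000 UMIs. The cause of these moves was not tested. Depth limits Foxo1 most, with 328 and 168 UMIs, and counting intervals hold no spread between animals.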
